A study of Mus musculus with 69 samples.

Results

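Effector memory (Tem) and central memory (Tcm) CD8+ T cells of wild type (WT) mice were compared by RNA-seq in the absence of added cytokine. The comparison rests on 4 samples of the 69 in the series, namely 2 Tem and 2 Tcm libraries, chosen by genotype, cell state and treatment as the labels give them and not by any measured value. All came from mice with every STAT5 allele intact (Stat5a+/+ Stat5b+/+), aged 8 to 16 weeks. CD8+ T cells were taken from lymph nodes and spleen combined and sorted by surface protein, both memory states as CD44 high cells set apart by a further surface marker, to a purity above 95%, with 20K to 100K cells per library. Naive cells (Tnv, CD44 low) of WT mice, again 2 libraries, entered the same fit and serve as a point of reference. The labels describe a culture of 12 to 16 h for every sample, whereas the study's methods describe cells without cytokine as processed directly after sorting, so "without cytokine" is used here for both readings. The study refers to the samples of a group as biological replicates and states for its RNA-seq that groups held 2 or 3 mice, assayed in 2 or 3 trials. The labels do not say which library came from which mouse or trial, and the p-values below measure the spread between these samples.

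Memory CD8+ T cells are antigen-experienced cells that outlive an immune response. Tcm carry lymph node homing molecules such as CCR7 and recirculate through lymphoid organs, whereas Tem have lost them, patrol blood and peripheral tissue and hold cytotoxic proteins ready for release. T-bet, Blimp-1, ZEB2 and ID2 are transcription factors known to favour the effector end of this range. TCF-1, LEF1, BACH2 and MYB are associated with naive and long-lived memory cells, and EOMES with long-lived memory cells.

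The 4 libraries held 12921118 to 25612758 counts on genes. Levels are given as CPM (counts-per-million of the normalized library total), which allow a gene to be compared between libraries but, lacking a correction for gene length, not with another gene. Fold changes are Tem over Tcm on the log2 scale with their standard error (SE), and adjusted p means a p of the quasi-likelihood test of edgeR, adjusted by Benjamini-Hochberg over the 10013 genes tested. A differentially expressed gene (DEG) had to pass an adjusted p of 0.05 and a 1.5-fold change. The replicate numbers of the labels moved together across Tnv, Tcm and Tem, and they are read as pairs in a blocked fit whose counts are given beside those of the lists they change. It was plain among 36 immediate early genes (Fos, Jun, Egr1 and others that are transcribed within minutes of a stimulus or of tissue handling), whose summed level was 7555 and 12095 CPM in Tnv replicates 1 and 2, 6521 and 11322 CPM in Tcm, and 6096 and 9629 CPM in Tem. Replicate 2 was the higher of the pair in 32, 34 and 31 of these 36 genes in the 3 states. A cause for this was not tested.

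The sorted phenotype was visible in the RNA, though not every marker passed the test. Cd44, high in both gates, was at 175 and 127 CPM in Tcm and 253 and 193 CPM in Tem (0.57, SE 0.25, adjusted p = 0.400), against 18.8 and 30.2 CPM in Tnv. Ccr7, the chemokine receptor for entry into lymph nodes, was at 425 and 379 CPM in Tcm and 236 and 281 CPM in Tem. The groups did not overlap, but the change of -0.64 (SE 0.13) had an adjusted p of 0.082 and is not a DEG in the unblocked fit. With replicate number as a block the adjusted p for Ccr7 was 0.00191. Klrg1, an inhibitory lectin receptor of terminally differentiated effector cells, was at 0.963 and 0.706 CPM in Tcm and 9.12 and 9.56 CPM in Tem, 11.5-fold higher (log2 3.52, SE 0.36, adjusted p = 0.00812). The markers therefore agree in direction with the labels, with Klrg1 low in absolute terms in both states.

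Markers of other cells were counted in the same libraries. Cd8a was at 1477 and 1292 CPM in Tcm and 1791 and 1635 CPM in Tem, and 0 of 7 CD8 markers tested was a DEG. Cd4 was at most 3.94 CPM in these 4 libraries. B cell transcripts were present at a low level and were lower in Tem, with a summed level over 11 markers of 271 and 468 CPM in the Tcm libraries and 125 and 215 CPM in the Tem libraries. None of the 10 B cell markers tested was a DEG, all 10 had a negative fold change (median -1.24), and 9 were lower with the block. Summed myeloid markers ran from 83.4 to 116 CPM in Tcm and from 57.8 to 105 CPM in Tem. The 10 natural killer cell markers summed to 304 and 301 CPM in Tcm and 206 and 197 CPM in Tem, most of it Eomes, which CD8+ memory T cells express too. All 3 tested had a negative fold change and Eomes was a DEG, while the defining markers Ncr1 and Klrb1c were at most 1.93 CPM and Klra8 was at 0 in the 4 libraries. The 10 markers of CD4+ T cells summed to 168 and 161 CPM in Tcm and 263 and 226 CPM in Tem. Of the 9 tested, 8 had a positive fold change (median 0.78), 2 were higher in Tem, and with the block 7 were higher and 1 lower. Summed erythroid and platelet markers stayed at or under 7.01 CPM in the 4 libraries. The part of these cells in the results below was not tested, and in bulk RNA fewer cells expressing a gene and less RNA of it per cell cannot be told apart.

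Tem differed from Tcm mainly by genes that were higher. Of 10013 genes tested, 195 were DEG, of which 185 were higher in Tem (1.85% of those tested) and 10 were lower (0.0999%). The median change of the DEG higher in Tem was 3.62-fold, and 80 of the 185 changed more than 4-fold and 19 more than 8-fold. The 10 that were lower changed by a median of only 1.70-fold. Their median level was 165 CPM in Tcm and 102 CPM in Tem, against 5.69 and 21.7 CPM for the genes that rose. These levels also entered the choice of DEG, and how much of the gap in Tcm comes from that choice was not tested. The median fold change over all genes tested was 0.0015 on the log2 scale. With replicate number as a block there were 674 DEG, 494 higher (4.93%) and 180 lower (1.80%), and all 195 DEG of the unblocked fit were among them. The share of DEG that were higher in Tem was 94.9% unblocked and 73.3% with the block. Tem and Tcm libraries did not overlap for 38.8% of all genes tested, and for all 195 DEG.

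**Figure D1:**
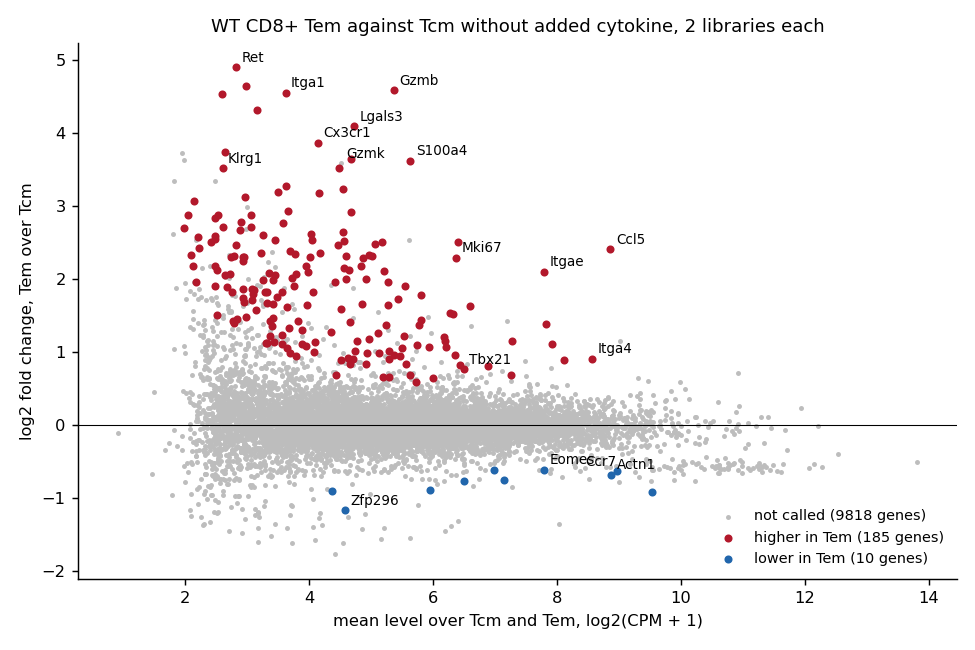
Log2 fold change of Tem over Tcm (vertical axis) against the mean level of each gene over both states, as log2(CPM + 1) (horizontal axis), for the 10013 genes tested in 2 libraries per state. The 185 DEG higher in Tem (red) lie mostly at low to middle levels and far from 0, while the 10 lower in Tem (blue) lie at higher levels and close to the limit of 1.5-fold.

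The genes that were higher in Tem did not all sit at the far end of one line running from Tnv through Tcm to Tem. In 122 of the 185, both Tcm libraries were already above both Tnv libraries, but in 29 they were below both Tnv libraries and in 34 the ranges overlapped. Over all genes tested, Tcm was above Tnv without overlap in 22.9% and below it in 21.0%. These shares describe Tcm and Tnv libraries whose Tcm values also entered the choice of DEG, and they are given without a test. Itgae and Id2 belong to the 29 genes with their lowest level in Tcm, as described below.

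Receptors and adhesion molecules that direct cells to peripheral tissue made up a list with many DEG, all of them higher in Tem. Of 29 such genes listed, 24 were tested, 9 were higher in Tem, none was lower and the median fold change was 1.25, against 0.0015 over all genes. With the block 17 of 24 were higher. Cx3cr1, the fractalkine receptor of vessel-patrolling effector cells, was at 2.33 and 2.0 CPM in Tcm and 37.1 and 25.4 CPM in Tem (3.87, SE 0.33, adjusted p = 0.00589), so that Tem stood apart by 14.6-fold. S1pr5, a sphingosine-1-phosphate receptor that guides exit into blood, was at 3.61 and 3.18 CPM in Tcm and 31.4 and 29.6 CPM in Tem, 9.04-fold higher. Ccr10, a receptor for skin and mucosal chemokines, was at 4.57 and 2.94 CPM in Tcm and 40.9 and 50.1 CPM in Tem, 12.5-fold higher. In all 3 genes the Tnv libraries were at or below the higher of the Tcm libraries.

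Of the integrin chains on this list, Itga1, Itgae and Itga4 were higher in Tem, and the others did not pass. Itga1, the collagen-binding alpha chain CD49a, was at 1.12 and 0.784 CPM in Tcm and 19.9 and 23.4 CPM in Tem, 23.5-fold higher (4.55, SE 0.30, adjusted p = 0.00272). Itgae, which encodes CD103 and pairs with beta7 integrin to bind E-cadherin, was at 104 and 63.2 CPM in Tcm and 370 and 344 CPM in Tem (2.1, SE 0.26, adjusted p = 0.0147). Its Tnv libraries, at 291 and 209 CPM, lay between the memory states, so Tcm was the state with least Itgae. Itga4 was also lowest in Tcm but highest in Tnv, at 229 and 300 CPM in Tcm, 522 and 470 CPM in Tem and 626 and 619 CPM in Tnv (Tem over Tcm 0.91, adjusted p = 0.039). Gcnt1 and Fut7, enzymes that build the sugar ligands for selectins, changed by 1.67 and 2.25, and Gpr55, a lysolipid receptor, by 1.82. Among members that did not pass, Itgb1 was at 394 and 249 CPM in Tcm and 792 and 632 CPM in Tem (adjusted p = 0.0685) and Cxcr6 had a fold change of 1.36 (adjusted p = 0.25).

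Of 13 genes listed and tested for homing to and movement within lymph nodes, 1 was a DEG, lower in Tem, and the median fold change was -0.04. With the block 2 of the 13 were higher, Itgal and Cxcr3, and 3 were lower, Ccr7 and Cxcr4 among them. Cxcr3, a receptor for inflammatory chemokines, was at 208 and 143 CPM in Tcm and 352 and 248 CPM in Tem (0.78, adjusted p = 0.242 unblocked and 0.00408 blocked). Cxcr4, the receptor for CXCL12, was at 248 and 260 CPM in Tcm and 176 and 155 CPM in Tem (-0.62, adjusted p = 0.053 unblocked and 0.000872 blocked). S1pr1, the receptor for exit from lymph nodes, was at 352 and 313 CPM in Tcm and 270 and 278 CPM in Tem (-0.28, adjusted p = 0.367). Klf2, which controls S1pr1, was at 561 and 880 CPM in Tcm and 503 and 679 CPM in Tem, with overlapping ranges (adjusted p = 0.745).

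**Figure D2:**
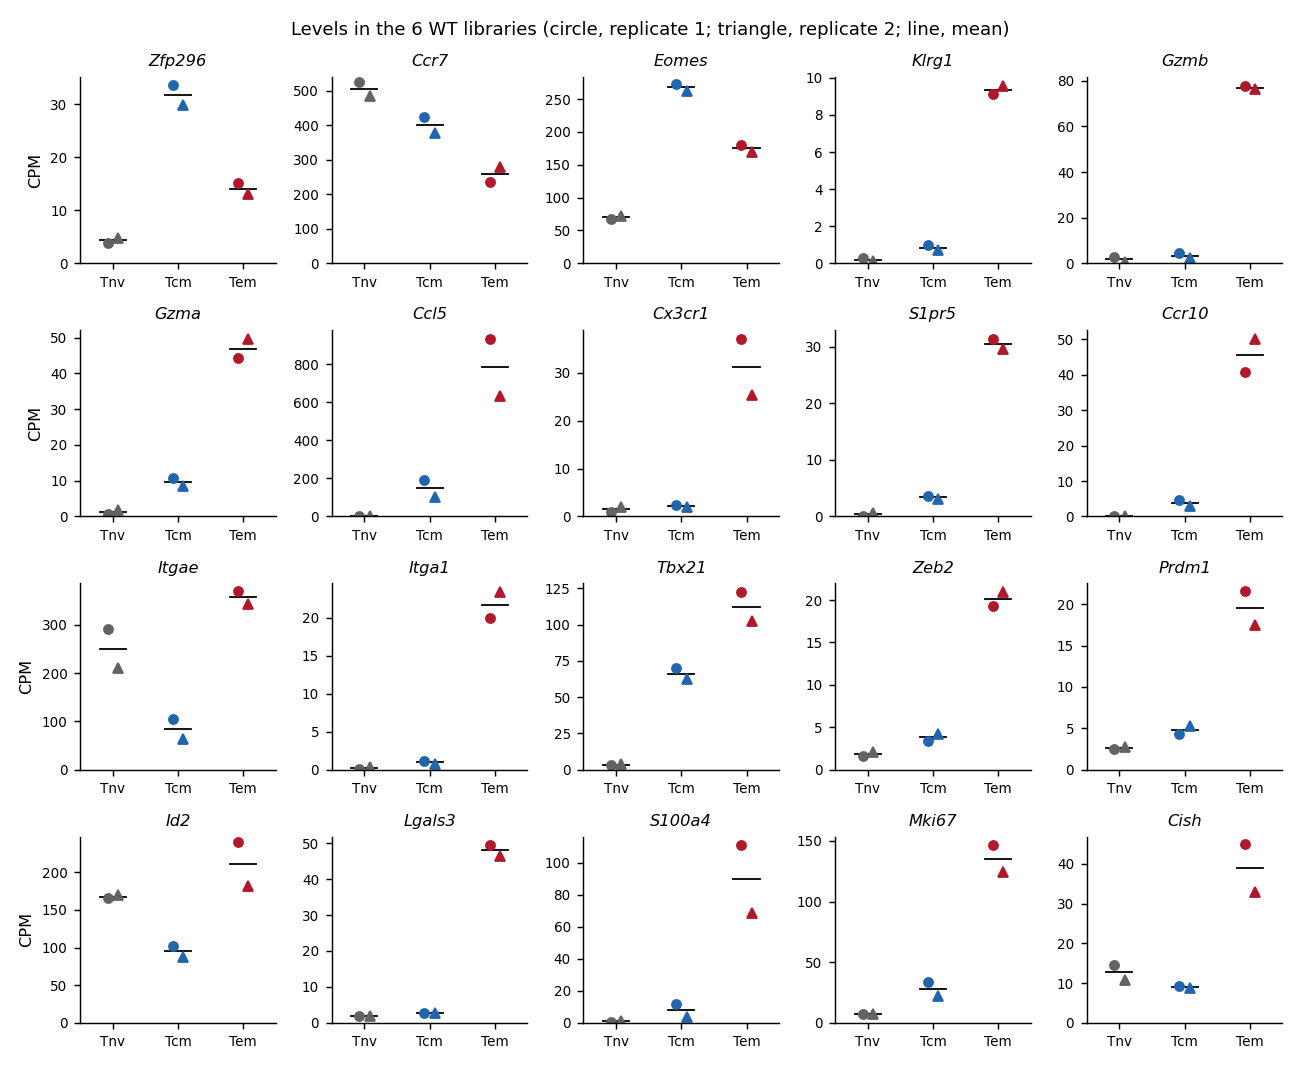
Level in CPM (vertical axes, from 0) of 20 genes in the 6 WT libraries of Tnv (grey), Tcm (blue) and Tem (red); circles are replicate 1, triangles replicate 2 and lines the mean of 2 libraries. For each gene the Tem points lie apart from the Tcm points, below them for Zfp296, Ccr7 and Eomes and above them for the other 17, and Itgae and Id2 are lowest in Tcm.

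Several transcription factors of the effector programme were higher in Tem. Of 30 effector factors listed, 24 were tested, 7 were higher, none was lower, 17 did not pass and the median fold change was 0.69. With the block 14 were higher and 1 was lower. Tbx21, which encodes T-bet, was at 70.0 and 62.6 CPM in Tcm and 122 and 103 CPM in Tem, 1.7-fold higher (0.76, SE 0.12, adjusted p = 0.0321), against 3.30 and 3.55 CPM in Tnv. Most of the distance from naive cells in Tbx21 was therefore already present in Tcm. Zeb2, a repressor induced by T-bet, was at 3.37 and 4.23 CPM in Tcm and 19.3 and 21.0 CPM in Tem, 5.22-fold higher (adjusted p = 0.00589). Prdm1, which encodes the repressor Blimp-1, was at 4.25 and 5.29 CPM in Tcm and 21.6 and 17.5 CPM in Tem, 4.04-fold higher (adjusted p = 0.00818). For Zeb2 and Prdm1 the larger step was between Tcm and Tem.

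Id2, an inhibitor of E proteins, was at 103 and 88.0 CPM in Tcm and 240 and 182 CPM in Tem (1.15, SE 0.16, adjusted p = 0.0194), with Tnv in between at 165 and 170 CPM. Rora and Maf, better known as factors of helper and innate-like lymphocytes, had larger changes. Rora was at 9.39 and 10.2 CPM in Tcm and 57.8 and 51.9 CPM in Tem (2.48, adjusted p = 0.00272), and Maf was at 4.17 and 4.39 CPM in Tcm and 30.5 and 22.4 CPM in Tem (2.62, adjusted p = 0.00589). Tnv had 14.8 and 12.0 CPM of Rora, above both Tcm libraries, and 3.73 and 2.78 CPM of Maf, a little below them. Ahr, a receptor for aryl hydrocarbons, changed by 1.42 at under 9 CPM. Bhlhe40 had a fold change of 1.47, Irf4 of 0.68 and Irf8 of -0.65, and none of them passed.

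Of 18 factors linked to naive and memory cells, 16 had a negative fold change and the median was -0.26, but Eomes alone was a DEG. Eomes, a T-box factor related to T-bet, was at 273 and 262 CPM in Tcm and 180 and 170 CPM in Tem (-0.61, SE 0.10, adjusted p = 0.0342). Tem nevertheless held more Eomes than Tnv, which had 67.5 and 72.6 CPM. Tcf7, encoding TCF-1, was at 1269 and 1336 CPM in Tcm and 1107 and 1094 CPM in Tem (-0.24, adjusted p = 0.429), a small difference in an abundant transcript. Lef1 was at 316 and 352 CPM in Tcm and 171 and 237 CPM in Tem (-0.71, adjusted p = 0.111), Satb1 had a fold change of -0.72 (adjusted p = 0.0709) and Myb one of -0.62 (adjusted p = 0.0507). With the block, 4 of the 18 were lower.

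Granule proteins separated into those that differed between the memory states and those that did not. Of 23 cytotoxic genes listed, 17 were tested, 3 were higher in Tem and none was lower, with a median of 0.24, and with the block 6 were higher and 1 was lower. Gzmb, the serine protease granzyme B, was at 4.33 and 2.39 CPM in Tcm and 77.8 and 76.3 CPM in Tem, 24.0-fold higher (4.59, SE 0.42, adjusted p = 0.00589). The Tcm libraries were close to the Tnv libraries (2.58 and 0.764 CPM), so Gzmb was a transcript of Tem among these states. Gzma was at 10.7 and 8.63 CPM in Tcm and 44.3 and 49.6 CPM in Tem (2.29, SE 0.26, adjusted p = 0.00988). Fasl, the death ligand, was at 2.81 and 1.76 CPM in Tcm and 13.5 and 8.58 CPM in Tem (2.30, SE 0.39, adjusted p = 0.0394).

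Prf1, the pore-forming perforin without which granzymes do not enter the target, was at 174 and 148 CPM in Tcm and 158 and 141 CPM in Tem (-0.10, SE 0.13, adjusted p = 0.813), with overlapping ranges. Gzmk was at 6.34 and 1.10 CPM in Tcm and 63.2 and 17.1 CPM in Tem, a fold change of 3.58 with an adjusted p of 0.132. Replicate 1 exceeded replicate 2 in both states, and with the block the adjusted p for Gzmk was 5.27e-08. Gzmm went the other way with a fold change of -0.59 (adjusted p = 0.551). Nkg7, Ctsw and Cst7, further granule genes, had fold changes of 0.19, 0.11 and 0.10 and did not pass.

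Chemokines and cytokines were measurable for few members, since 17 of 29 listed had too few counts to be tested. Of the 12 tested, Ccl5, Csf1 and Cxcl10 were higher in Tem, and 11 of 12 had a positive fold change (median 1.03). With the block 7 of the 12 were higher. Ccl5, a chemokine stored by memory CD8+ T cells, was at 192 and 104 CPM in Tcm and 930 and 634 CPM in Tem (2.41, SE 0.31, adjusted p = 0.0173), against 2.30 and 2.51 CPM in Tnv. It was thus raised in both memory states and further in Tem. Csf1 and Cxcl10 stayed at or under 6.30 CPM. Ifng, encoding interferon gamma, was at 10.7 and 17.1 CPM in Tcm and 73.8 and 89.8 CPM in Tem. Its groups did not overlap and its fold change was 2.54, but the SE of 0.71 gave an adjusted p of 0.183, and the Tnv libraries behind the shared estimate of spread were at 7.82 and 0.491 CPM. With the block the adjusted p for Ifng was 0.000795. Tnf was at 17.0 and 32.8 CPM in Tcm and 32.5 and 47.9 CPM in Tem and overlapped (adjusted p = 0.551).

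The promoters of 4 of these genes are shown, 2 for the granzymes, 1 for the repressor Prdm1 and 1 for Lgals3, the gene with the smallest adjusted p in the comparison. They are RefSeq windows on GRCm38.p6, read 5′ to 3′ on the strand of the gene. Each runs from 250 bases before to 50 bases after the first start listed for the gene. For Prdm1 and Lgals3 that start lay inside the annotated span of the gene, so it is not the outermost start. Capitals mark matches, on either strand, to the letters searched, which were GGTGTGA for T-box factors, CTTTGAT for TCF and LEF factors, CCACACCC for KLF factors, TGTGGTT for RUNX factors, TGANTCA for AP-1 and CACCTG for the E-box that ZEB factors bind. The T-box and KLF letters share CACACC, and the KLF and RUNX letters share CCACA.
Gzmb, chr14:56262285-56262584, minus strand, RUNX 34 and AP-1 58 bases before the start: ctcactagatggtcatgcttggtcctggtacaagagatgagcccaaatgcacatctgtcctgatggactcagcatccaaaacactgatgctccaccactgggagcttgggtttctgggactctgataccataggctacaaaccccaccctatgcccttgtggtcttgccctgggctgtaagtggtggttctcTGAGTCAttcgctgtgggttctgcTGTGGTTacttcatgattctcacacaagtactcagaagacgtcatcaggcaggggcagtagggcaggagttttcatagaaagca
Gzma, chr13:113100932-113101231, minus strand, RUNX 51 and E-box 135 and 79 bases before the start: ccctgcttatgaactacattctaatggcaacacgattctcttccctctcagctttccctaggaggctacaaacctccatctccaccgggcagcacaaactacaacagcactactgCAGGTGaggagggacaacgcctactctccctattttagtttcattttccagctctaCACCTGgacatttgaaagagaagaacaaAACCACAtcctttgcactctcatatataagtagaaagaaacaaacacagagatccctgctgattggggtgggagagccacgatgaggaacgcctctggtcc
Prdm1, chr10:44458699-44458998, minus strand, AP-1 48 and E-box 87 bases before the start: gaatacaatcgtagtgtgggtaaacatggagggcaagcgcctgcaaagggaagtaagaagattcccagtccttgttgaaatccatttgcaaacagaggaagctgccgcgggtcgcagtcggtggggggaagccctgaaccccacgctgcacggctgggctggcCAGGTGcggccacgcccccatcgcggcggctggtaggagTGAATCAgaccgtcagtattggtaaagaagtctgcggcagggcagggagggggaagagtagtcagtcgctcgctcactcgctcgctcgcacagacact
Lgals3, chr14:47373610-47373909, plus strand, E-box 223 and 114 bases before the start: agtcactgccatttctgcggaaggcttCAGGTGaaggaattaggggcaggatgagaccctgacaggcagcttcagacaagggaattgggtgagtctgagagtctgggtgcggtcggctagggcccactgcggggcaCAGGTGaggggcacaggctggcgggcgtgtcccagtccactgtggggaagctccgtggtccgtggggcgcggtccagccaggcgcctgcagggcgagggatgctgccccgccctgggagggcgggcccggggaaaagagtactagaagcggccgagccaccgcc
No T-box, TCF or KLF letters occurred in these 4 windows, which says nothing of binding elsewhere.

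A promoter window was found for 146 of the 185 DEG higher in Tem and for 8083 of the 10013 genes tested. AP-1 letters occurred in 7.53% of the former and 4.35% of the latter, RUNX letters in 5.48% and 3.79%, KLF letters in 6.16% and 3.77%, and the E-box in 19.9% and 16.7%. T-box letters occurred in 2.74% and 3.19%, and TCF letters in 2.05% and 2.46%. These shares rest on 11, 8, 9, 29, 4 and 3 promoters in the order given, and they are descriptions without a test. Over all 27013 windows of the reference table, AP-1 letters occurred in 7.94%, RUNX letters in 5.38%, KLF letters in 3.56%, the E-box in 20.0%, T-box letters in 3.95% and TCF letters in 3.72%.

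Receptors of natural killer cells and inhibitory receptors were raised in a few members each. Of 35 natural killer receptors listed, 16 were tested and Klrg1, Klrk1 and Klrb1f were higher in Tem, while with the block 9 were higher and 1 was lower. Klrk1, the activating receptor NKG2D, was at 38.9 and 28.5 CPM in Tcm and 75.3 and 67.5 CPM in Tem (1.09, SE 0.17, adjusted p = 0.0303). Members of these lectin families are near copies of each other, and how reads shared between copies were counted is not given in the sources used here. Of 20 inhibitory or exhaustion-linked receptors tested, Ctla4 and Cd101 were higher and 16 had a positive fold change (median 0.32). Ctla4, which competes with CD28 for its ligands, was at 11.2 and 10.1 CPM in Tcm and 23.6 and 18.9 CPM in Tem (1.0, SE 0.17, adjusted p = 0.0377), and Cd101 changed by 1.26 (adjusted p = 0.00988). Pdcd1, encoding PD-1, was at 5.70 and 0.980 CPM in Tcm and 21.4 and 10.3 CPM in Tem (2.36, SE 0.75, adjusted p = 0.227), and Lag3 had a fold change of 1.91 (adjusted p = 0.0759). With the block 8 of the 20 were higher, Pdcd1 and Lag3 included.

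Among ligands and receptors of the TNF family 1 of 17 was a DEG, and 3 were with the block. Cd40lg, the helper ligand CD154, was at 2.09 and 1.88 CPM in Tcm and 12.1 and 7.65 CPM in Tem (2.31, adjusted p = 0.0216). Cd40lg and Ctla4 are the 2 genes that were higher on the list of CD4+ T cell markers, whose other members Icos, Il2ra, Ikzf2, Zbtb7b, Foxp3 and Tnfrsf4 had positive fold changes that did not pass and Cxcr5 a negative one. Cd4 itself was at 3.21 and 3.41 CPM in Tcm and 1.85 and 3.94 CPM in Tem, with too few counts to be tested. Maf likewise stands on the list of gamma delta and innate-like T cell markers. Of the 19 listed, 9 were found by symbol, and the receptor genes Trdc and Tcrg-C1 were not among them. The summed level of those found was 50.4 and 58.3 CPM in Tcm and 77.7 and 57.0 CPM in Tem. Of the 4 tested, 2 had a positive and 2 a negative fold change (median -0.22). Maf was the only DEG of the 4 unblocked, and with the block 1 was higher and 1 lower.

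Some genes of S100 proteins, galectins, the cytoskeleton and the nuclear lamina were higher in Tem. Of 26 tested, 8 were higher, 1 was lower, 17 did not pass and 23 had a positive fold change (median 0.73). With the block 15 were higher and 1 was lower. Lgals3, encoding galectin-3, was at 2.73 and 2.86 CPM in Tcm and 49.4 and 46.5 CPM in Tem, 17.1-fold higher (4.09, SE 0.15, adjusted p = 0.000281). The tight replicates of Lgals3 gave the smallest adjusted p of all genes tested. S100a4, which acts on cell motility, was at 11.6 and 3.76 CPM in Tcm and 111 and 68.4 CPM in Tem, 12.3-fold higher (3.62, SE 0.50, adjusted p = 0.0198). S100a6 was at 35.5 and 15.2 CPM in Tcm and 176 and 107 CPM in Tem (2.51, adjusted p = 0.0355), and in both S100 genes replicate 1 was the higher in each memory state. Lgals1, Capg, Emp1, Lmnb1 and Myo1f, an actin-based motor, completed the higher genes with changes from 0.89 to 2.53. S100a10, S100a11, Vim and Lmna did not pass, with fold changes of 0.53, 0.74, 0.61 and 1.90. Actn1, an actin crosslinker, was lower at 351 and 371 CPM in Tem against 585 and 574 CPM in Tcm and 826 and 751 CPM in Tnv (-0.68, SE 0.11, adjusted p = 0.0377).

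Several genes of the cell division cycle were higher in Tem. Of 39 tested, 10 were higher in Tem, none was lower, 37 had a positive fold change and the median was 0.99. With the block 26 of 39 were higher. Mki67, a marker of cycling cells, was at 33.8 and 22.0 CPM in Tcm and 146 and 124 CPM in Tem, 4.90-fold higher (2.29, SE 0.21, adjusted p = 0.00589), against 6.89 and 7.04 CPM in Tnv. Top2a, a topoisomerase of dividing cells, was at 28.7 and 21.2 CPM in Tcm and 84.1 and 86.0 CPM in Tem (1.78, SE 0.18, adjusted p = 0.00777). Kif11, a motor of the mitotic spindle, changed by 2.07 (adjusted p = 0.00589) and Rrm2, a subunit of ribonucleotide reductase, by 1.96 (adjusted p = 0.00589). Tnv, Tcm and Tem formed a rising order without overlap for Mki67, Top2a, Kif11 and Rrm2. The remaining DEG of the list were Aurkb, Bub1, Ube2c, Nusap1, Cdc6 and Uhrf1. Of 11 regulators of the G1 phase, Cdkn2c, an inhibitor of cyclin-dependent kinases, was the only DEG unblocked (1.74, adjusted p = 0.0302). With the block 2 of the 11 were higher. The median of the division cycle list was 1.23 without Tcm replicate 1, 0.92 without Tcm replicate 2 and 1.08 without Tem replicate 2. When Tem replicate 1 was left out no gene of the division cycle list passed, although 40 of 40 then tested had a positive fold change (median 0.92).

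Components of cytokine signalling gave few DEG in the unblocked fit, in which 1.85% of all genes tested were higher and 0.0999% lower. At these shares, lists of this length would hold few DEG in any case. With the block the shares over all genes were 4.93% and 1.80%. None of 27 cytokine receptor genes was a DEG, while with the block 5 were higher (Il2ra, Il9r, Il12rb1, Il12rb2 and Tgfbr3) and 1 was lower (Il4ra). Il12rb1, a chain of the IL-12 receptor, had a fold change of 0.86 and Il4ra, a chain of the IL-4 receptor, one of -0.58. By DESeq2 4 receptor genes were higher and 1 was lower. Il7r was at 639 and 670 CPM in Tcm and 749 and 716 CPM in Tem (0.16, adjusted p = 0.678), and Il2rb, the chain shared by the IL-2 and IL-15 receptors, was at 791 and 724 CPM in Tcm and 837 and 654 CPM in Tem (-0.02, SE 0.15, adjusted p = 0.968). Of 23 genes of the JAK and STAT pathway, Cish alone was a DEG. Cish, a feedback inhibitor induced by STAT5, was at 9.15 and 8.74 CPM in Tcm and 45.0 and 32.8 CPM in Tem, 4.35-fold higher (2.12, SE 0.22, adjusted p = 0.00818), with Tnv at 14.6 and 10.7 CPM. Other STAT5-responsive genes varied. Pim1 was at 65.0 and 110 CPM in Tcm and 82.4 and 127 CPM in Tem (adjusted p = 0.820). Socs3 was at 114 and 214 CPM in Tcm and 95.3 and 181 CPM in Tem (adjusted p = 0.847). The study counts Cish, Il2ra, Gzmb, Bcl2 and Myc among STAT5 targets. Of these, Cish and Gzmb were DEG higher in Tem, and Il2ra was higher with the block but did not pass unblocked. Bcl2 and Myc had negative fold changes, of -0.54 and -0.47, that did not pass unblocked. Stat5a and Stat5b had fold changes of -0.04 and 0.06. None of 11 BCL2 family genes passed unblocked, while with the block 1 was lower. Bcl2 was at 389 and 345 CPM in Tcm and 267 and 238 CPM in Tem (-0.54, adjusted p = 0.113). Of 38 genes of T cell receptor signalling, Txk, a kinase of the TEC family, was lower (-0.62, adjusted p = 0.0281) and none was higher. With the block 1 of the 38 was higher and 1 lower. Mx1 was the only DEG among 38 interferon-stimulated genes (0.90, adjusted p = 0.0426) and Rgs1 the only one among 36 immediate early genes (0.94, adjusted p = 0.0278). With the block 1 interferon-stimulated gene was higher and 1 lower. Of the immediate early genes 3 were then higher and 1 lower.

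Ribosomal protein genes had fold changes of 1 sign without a DEG in the unblocked fit. All 78 tested had a negative fold change, with a median of -0.58 and a range from -0.78 to -0.13. Their summed level was 166331 and 120313 CPM in the Tcm libraries and 101753 and 90968 CPM in the Tem libraries. The Tem libraries were below both Tcm libraries, but the Tcm replicates lay further from each other than the higher Tem from the lower Tcm library. The number of DEG turned on the fit, 24 of the 78 being lower with the block, 29 by DESeq2 and 70 without Tcm replicate 2 (median -0.78). Without Tcm replicate 1 none was a DEG (median -0.31). Many of these genes have processed pseudogenes that can share reads with them. Oxidative phosphorylation genes had a median of -0.21 with 73 of 75 negative and no DEG, which turned to a median of 0.06 with 48 of 75 positive when Tcm replicate 1 was left out. None of 26 glycolysis genes (median -0.09) and none of 30 genes of lipid and sterol synthesis (median 0.07) was a DEG. With the block 1 lipid and sterol synthesis gene was lower. Of 10 genes of sphingolipid and purine signalling tested, none was a DEG (median 0.09), and 2 were higher with the block.

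**Figure D3:**
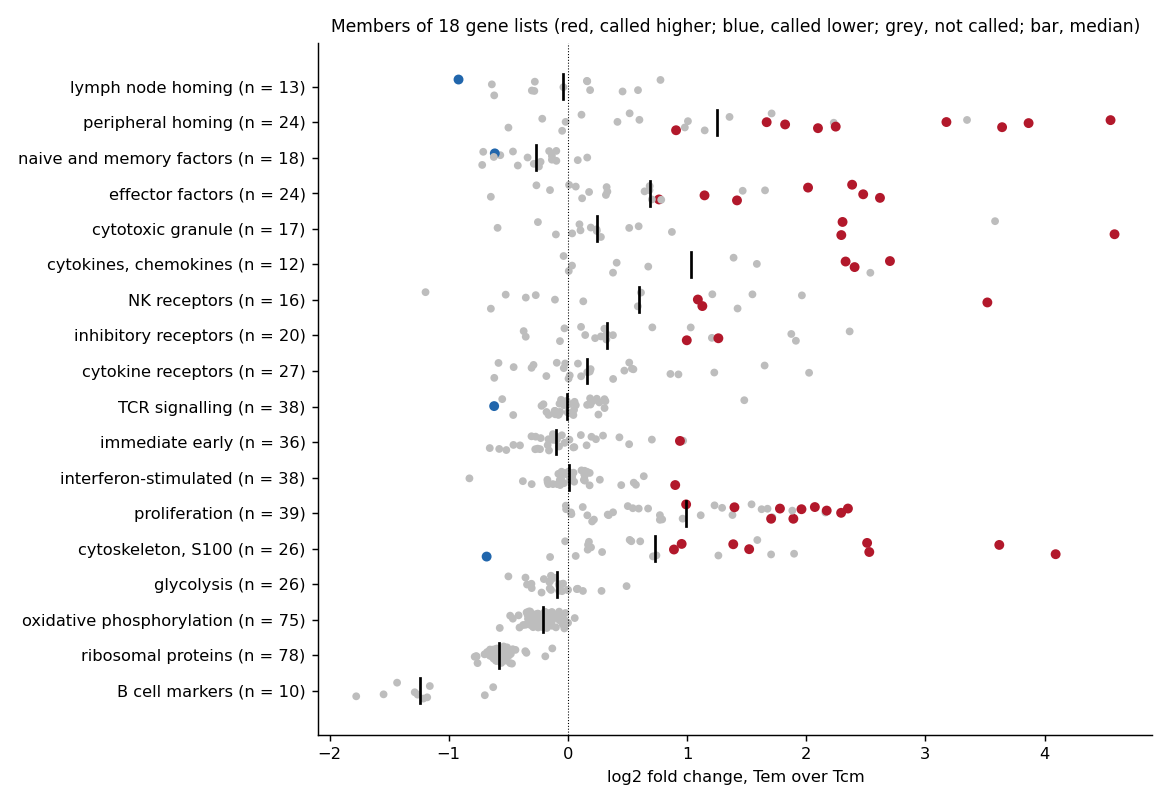
Log2 fold change of Tem over Tcm (horizontal axis) for each tested member of 18 gene lists (vertical axis, n tested in brackets), red for DEG higher in Tem, blue for DEG lower, grey for genes that did not pass, with a bar at the median of the list. Peripheral homing, effector factors, division cycle and S100 and cytoskeleton genes lie mostly right of 0 with several red points, and the ribosomal protein genes form a narrow grey cluster left of 0.

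Several of the largest changes were in genes outside these lists. Ret, a receptor tyrosine kinase for ligands of the GDNF family, had the largest fold change, from 0.642 and 0.235 CPM in Tcm to 12.3 and 11.2 CPM in Tem (4.90, SE 0.65, adjusted p = 0.0188). Cpne7, a calcium-dependent membrane-binding copine, was at 0.481 and 0.549 CPM in Tcm and 16.7 and 9.91 CPM in Tem (4.64, SE 0.47, adjusted p = 0.00777). Arnt2, a partner of bHLH-PAS transcription factors, was at 0.642 and 0.274 CPM in Tcm and 9.71 and 9.68 CPM in Tem (4.53, SE 0.41, adjusted p = 0.00589). Tcm held these transcripts at a level near that of Tnv, where each was at or under 0.359 CPM. Sema6d, a transmembrane semaphorin, rose by 4.32, Stk32c, a serine and threonine kinase, by 3.74 and Ttc39c by 3.52, all with Tem libraries above 9 CPM and Tcm libraries under 5 CPM.

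Genes lower in Tem were fewer and changed less. Zfp296, a zinc finger protein, had the largest decrease, from 33.6 and 29.8 CPM in Tcm to 15.2 and 13 CPM in Tem (-1.17, SE 0.16, adjusted p = 0.0216), and it was at 3.80 and 4.80 CPM in Tnv. Gsto1, a glutathione transferase, likewise had its highest level in Tcm, at 28.7 and 22.5 CPM against 14.2 and 13.1 CPM in Tem and 8.54 and 8.03 CPM in Tnv (Tem over Tcm -0.90, adjusted p = 0.0495). Treml2, a receptor of the TREM family, was at 171 and 183 CPM in Tcm, 91.5 and 117 CPM in Tem and 223 and 226 CPM in Tnv (-0.76, adjusted p = 0.0484). Sh3pxd2a, a scaffold of podosomes, Ttc28 and Smc6, a subunit of a chromosome maintenance complex, changed by -0.89, -0.78 and -0.63. Zfp296, Gsto1, Eomes and Txk were the 4 genes of the 10 in which Tcm was above Tnv without overlap.

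The same comparison was made in mice lacking most STAT5 alleles, which supplied Tem and Tcm libraries that share none with WT. AAB mice are Stat5a-/- Stat5b+/- and BBA mice are Stat5a+/- Stat5b-/-, both germline knockouts, with 2 Tem and 2 Tcm libraries each. Stat5a was at 64.5 to 78.8 CPM in the WT memory libraries, 2.17 to 3.29 CPM in AAB and 35.1 to 43.4 CPM in BBA. Stat5b was at 165 to 203 CPM in WT, 76.6 to 95.1 CPM in AAB and 48 to 66.2 CPM in BBA, so the transcripts followed the labels, with reads left from Stat5b in BBA. In AAB 40 of 10455 genes were DEG between Tem and Tcm, 39 higher (0.373%) and 1 lower (0.00956%), and in BBA 99, 88 higher (0.842%) and 11 lower (0.105%). These counts come from a fit of 12 libraries that also held WT, in which WT had 107 DEG higher and 3 lower in Tem.

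The WT genes kept their direction in both genotypes. Of the 185 genes higher in WT Tem, 183 had a positive fold change in AAB and 185 in BBA, and 25 and 53 were DEG there in the same direction. Their median fold change was 1.07 in AAB and 1.45 in BBA against 1.86 in WT, where the genes had been chosen for being large. All 10 genes lower in WT Tem were negative in AAB and in BBA, and none was a DEG in either. The shared DEG were 12.8% of the WT list and 62.5% of the AAB list, and 27.2% of the WT list and 53.5% of the BBA list. Maf was among the shared genes, at 4.63 and 4.77 CPM in AAB Tcm and 38.2 and 32.8 CPM in AAB Tem, and at 5.43 and 5.10 CPM in BBA Tcm and 56.6 and 34.1 CPM in BBA Tem. Gzmb, S1pr5, Rora, Lgals3 and Sema6d were DEG in all 3 genotypes.

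The difference between genotypes was tested as an interaction. In AAB it was a DEG for 1 of 10455 genes (0.00956%), which was Gzma, with 136 genes at an unadjusted p under 0.05. Gzma was at 32.4 and 28.2 CPM in AAB Tcm and 25.3 and 26.2 CPM in AAB Tem, so that Tem were not above Tcm and AAB Tcm were above the WT Tcm libraries. Its Tem over Tcm change was smaller in AAB than in WT by 2.51 on the log2 scale, that is, an interaction of -2.51 (SE 0.235, adjusted p = 0.0142). In BBA Gzma was at 12.1 and 8.99 CPM in Tcm and 32.5 and 30.5 CPM in Tem. For BBA no gene passed by edgeR (0%), with 97 genes at an unadjusted p under 0.05 and 0 by DESeq2. Cish had fold changes of 2.12 in WT, 0.60 in AAB and 1.33 in BBA, Mki67 of 2.29, 0.77 and 1.35, and Ccr10 of 3.64, 1.14 and 1.65, and for none of these 3 did the interaction pass, so a difference between genotypes was not detected for them.

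**Figure D4:**
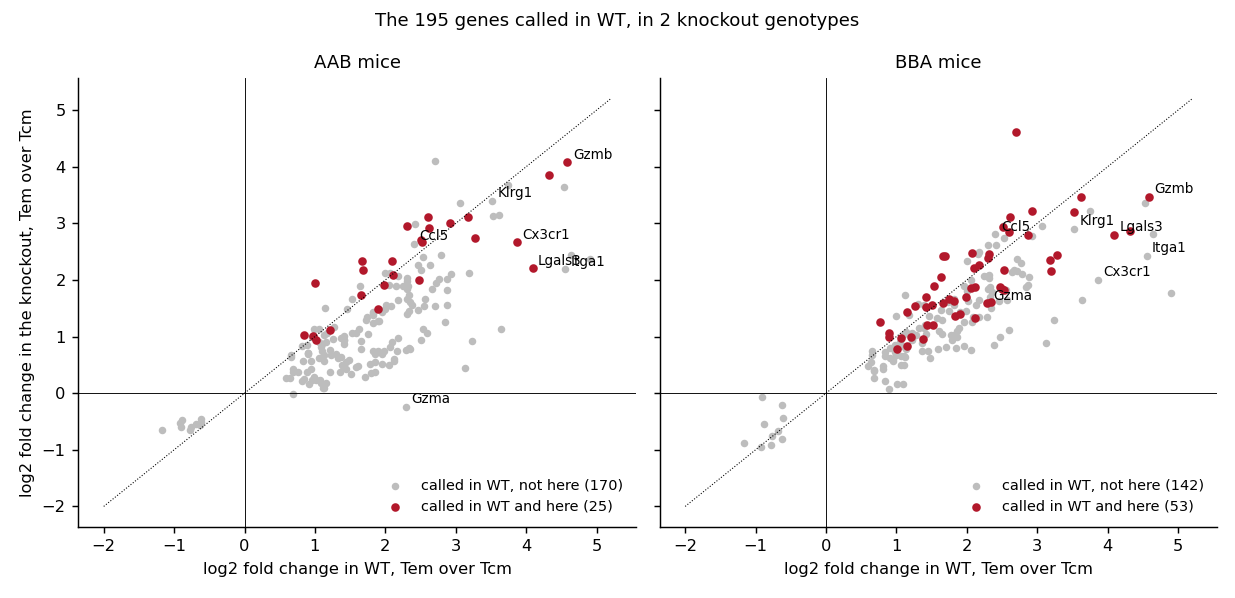
Log2 fold change of Tem over Tcm in AAB (left) and BBA mice (right), on the vertical axes, against that in WT (horizontal axes) for the 195 genes that were DEG in WT, red where the gene was a DEG in that genotype too (25 and 53 genes), with the dotted line marking equal change. Most points lie on the same side of 0 as in WT and below the line, and Gzma lies below 0 in AAB.

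Tem and Tcm of WT mice were further compared after 12 to 16 h with IL-15 at 10 ng/ml, a cytokine that sustains memory CD8+ T cells through STAT5. The IL-15 libraries are 2 per state and are not those without cytokine. If the latter were processed directly after sorting, culture and cytokine cannot be told apart in what follows. With IL-15 there were 575 DEG between Tem and Tcm among 10007 genes, 326 higher (3.26%) and 249 lower (2.49%). Of the 185 genes higher in Tem without cytokine 178 were tested with IL-15, 163 had the same sign and 120 were DEG, with a median of 1.48 against 1.82 without cytokine. Of the 10 lower genes 9 kept their sign and 6 were DEG. The 130 genes that were DEG in both are 66.7% of the list without cytokine and 22.6% of the list with IL-15. Of these, 126 changed in the same direction and 4 (Cdc6, Chaf1a, Dtl and Uhrf1) were higher in Tem without cytokine and lower with IL-15. Cx3cr1, Itga1, Ccr10 and Lgals3 were higher in Tem by 3.91, 4.48, 3.37 and 4.43 with IL-15, and Klrg1 by 6.19.

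The interaction of state with IL-15 was a DEG for 23 of 10007 genes (0.230%), 5 positive and 18 negative. Gzmb had the largest. With IL-15 it was at 26.8 and 20.7 CPM in Tcm and 35.7 and 31.8 CPM in Tem. The 24.0-fold difference without cytokine was thus reduced to a log2 fold change of 0.51, still higher in Tem, that did not pass (interaction -4.07, SE 0.341, adjusted p = 0.0109). The Tcm libraries were higher and the Tem libraries lower than those without cytokine. Dtl, a substrate receptor of a ubiquitin ligase active in S phase, was at 32.5 and 28.4 CPM in Tcm and 4.98 and 8.17 CPM in Tem with IL-15 (interaction -3.64, SE 0.359, adjusted p = 0.0151). The negative interactions included the replicative helicase subunits Mcm2, Mcm3, Mcm5, Mcm6 and Mcm7, the DNA ligase Lig1, the histone chaperone subunit Chaf1a, Rrm2, Top2a and Uhrf1. Mcm5 was at 219 and 188 CPM in Tcm and 59.2 and 64.4 CPM in Tem with IL-15 (interaction -2.04, SE 0.152, adjusted p = 0.00683).

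Of the 36 division cycle genes tested both with and without IL-15, 1 was higher in Tem and 11 were lower, with a median of 0.05, the 11 being Mcm2, Mcm3, Mcm4, Mcm5, Mcm6, Mcm7, Cdc6, Cdt1, E2f1, Uhrf1 and Stmn1. The higher gene was Mki67, at 41.1 and 39.8 CPM in Tcm and 69.4 and 83.6 CPM in Tem (0.92, adjusted p = 0.0368). The interaction passed for 8 genes of the list. Il7r had a positive interaction (1.45, SE 0.161, adjusted p = 0.0211). It was at 288 and 269 CPM in Tcm and 901 and 787 CPM in Tem with IL-15, so a receptor gene with like levels without cytokine was separated by state with it. Cd101 had a positive interaction as well (1.41, SE 0.169, adjusted p = 0.0243), from 9.06 and 8.87 CPM in Tcm to 57.2 and 55.9 CPM in Tem with IL-15. Cish was at 59.9 and 49.0 CPM in Tcm and 75.3 and 57.9 CPM in Tem with IL-15, overlapping, but its interaction of -1.82 did not pass (adjusted p = 0.0639).

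**Figure D5:**
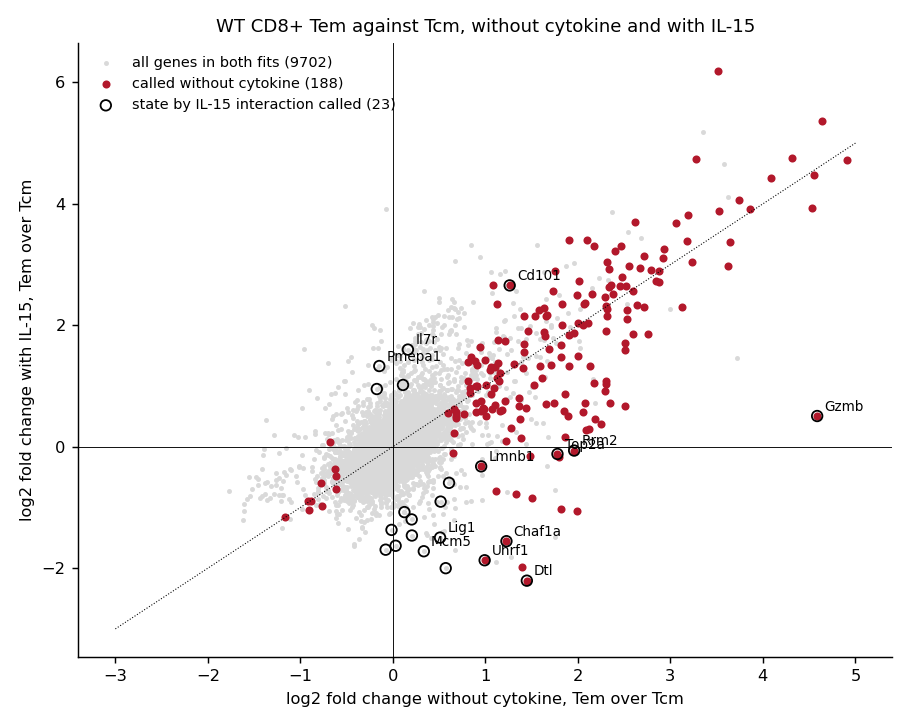
Log2 fold change of Tem over Tcm with IL-15 (vertical axis) against that without cytokine (horizontal axis) for 9702 genes in both fits, red for the 188 DEG without cytokine that were tested in both and circled for the 23 genes with a state by IL-15 interaction. Most red points lie in the upper right, Gzmb lies far below the dotted line of equal change, and most circled points lie below 0 on the vertical axis.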

How the data were processed

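Poly(A) RNA of sorted cells was sequenced as 50 bp single-end reads. The authors deposited whole-number counts per gene for the CD8 libraries. The labels name TopHat2, Cufflinks and HTSeq with mm9, whereas the study's methods give mm10, and strand setting and annotation are not given in the sources used here. Positions come from GRCm38 annotation and were matched by symbol. Totals of the 48 CD8 libraries were 5926139 to 25612758 counts, and the number of counts and of libraries limits what could be detected.

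Analysis started from the deposited counts. In R 4.3.3, edgeR 4.0.16 with TMM normalization and its earlier quasi-likelihood form was fitted to 6 WT libraries (Tnv, Tcm, Tem), leaving 3 residual degrees of freedom and a biological coefficient of variation of 13.7%. Genes were filtered by the Jaccard method of HTSFilter (100 thresholds from 1 to 200), after the study's methods. The AAB and BBA comparisons and their interactions used 12 libraries of 3 genotypes, and the IL-15 ones 8 WT libraries. DESeq2 1.42.0 was an alternative, beside other filters, scalings, sets of libraries and leaving out each replicate. The test was checked on simulated counts of 10275 genes, where it recovered 90% of genes changed 2-fold and all changed 4-fold, with 7 false calls. The simulated counts had the same spread for every gene and no link between replicate numbers. The data differ in both, so these rates need not hold for them.

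Replicate numbers were examined as pairs before calls were compared. Deviations from the group mean correlated between same-numbered libraries by 0.55 (Tnv and Tcm), 0.55 (Tnv and Tem) and 0.70 (Tcm and Tem), and the numbers were therefore also fitted as a block. Replicates of a group differed beyond counting noise, with a chi-square of their counts over genes of 9.30 to 40.5 times its degrees of freedom.

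Named genes were the markers and DEG of the lists, beside members given to show what did not pass. Up to 12 DEG in each direction were added, those with the largest change among named genes with at least 50 normalized counts on average. The 2 unnamed predicted genes among the DEG are not described, and 1 further gene lower in Tem is counted but not reported here. The members, gene lists and motifs were chosen with earlier results of these data known, and lists are described by counts and medians without a set test. Sequences are from RefSeq, with a promoter for 36 of 50 named genes.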

Additional observations from a re-analysis of the deposited data

Results flagged for a closer look

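For these genes the Tem over Tcm change itself differed between conditions, by an interaction term in edgeR's quasi-likelihood fit with Benjamini-Hochberg adjustment. Values are differences of log2 fold changes, negative where Tem over Tcm was smaller in the second condition, with 2 libraries per group.

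Between AAB and WT mice the term passed for Gzma (-2.51). It passed again with the replicate block, and leaving out replicates gave between 0 and 1 genes.

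Between cells with IL-15 and without cytokine the term passed for 23 genes. It was positive for Pmepa1 (1.49), Il7r (1.45), Cd101 (1.41), Fam101b (1.14) and Fam46c (0.92). It was negative for Gzmb (-4.07), Dtl (-3.64), Uhrf1 (-2.85), Chaf1a (-2.77), Cdca7 (-2.56), Mcm5 (-2.04), Rrm2 (-2.01) and Lig1 (-1.99). It was further negative for Top2a (-1.88), Timeless (-1.65), Mcm3 (-1.65), Ung (-1.60), Cyp51 (-1.41), Mcm6 (-1.39), Mcm2 (-1.34), Lmnb1 (-1.26), Acot7 (-1.19) and Mcm7 (-1.19). Cyp51 belongs to sterol synthesis and Acot7 to fatty acid metabolism, unlike the replication genes beside them.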

How the results depend on the processing

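The direction of the WT genes did not depend on the processing in what was run, since every one of the 195 DEG that could be tested kept its sign under each of 10 refits (another filter, DESeq2 or its size factors, the block, other sets of libraries, a replicate left out). Their number did. It was 814 with no filter, 397 by DESeq2, 674 with the replicate block, 110 in the fit of 12 libraries of 3 genotypes and 9 after a Bonferroni adjustment, and between 9 and 345 with a replicate left out. The lowest, 9, was without Tem replicate 1, against 82 without Tem replicate 2 and 345 without Tcm replicate 2, and the lone library is then assumed to vary like the other groups. Without Tem replicate 1, 43 of the 50 named genes lost their call. Ccr7 was a DEG by DESeq2 and with the block.

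For AAB the count was 132 with no filter, 188 by DESeq2, 259 with the block and 0 to 3 with a replicate left out. For BBA it was 316, 329 and 462, and 0 to 235. The AAB interaction gave 4 genes by DESeq2 and 0 to 1 with a replicate left out, and the BBA interaction 0 throughout. With IL-15 it was 1470 with no filter, 923 with the block and 102 to 1228 with a replicate left out. The IL-15 interaction gave 209 with no filter, 141 by DESeq2, 198 with the block and 0 to 23 with a replicate left out. The cause of these moves was not tested, beyond the fewer samples in the fits that left one out.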

Other observations

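Some receptor genes had large differences with groups that did not overlap but missed the adjusted threshold of edgeR's quasi-likelihood fit, and they were picked out after their values were seen. P2rx7, the ATP-gated purine receptor, was at 6.58 and 14.5 CPM in Tcm and 38.0 and 41.3 CPM in Tem (1.87, adjusted p = 0.224). Il12rb2, a chain of the IL-12 receptor, was at 2.33 and 1.88 CPM in Tcm and 8.82 and 8.12 CPM in Tem (2.02, adjusted p = 0.096). Cd7 was at 96.4 and 62.8 CPM in Tcm and 238 and 188 CPM in Tem (1.42, adjusted p = 0.057). Klra3, an inhibitory receptor of the Ly49 family, had the opposite sign, at 8.67 and 4.59 CPM in Tcm and 4.23 and 1.57 CPM in Tem (-1.19, adjusted p = 0.399).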
